A study of Homo sapiens with 9 samples.

Results

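The BCL2 family decides whether a stressed cell releases cytochrome c from its mitochondria, and 10 of its genes were examined here in MDA-MB231, an established human cell line from a triple-negative breast cancer. The anti-apoptotic members are BCL2, BCL2L1 (BCL-XL), BCL2A1 (BFL-1) and MCL1. The BH3-only members, which start the death signal, are BCL2L11 (BIM), BMF, BBC3 (PUMA) and PMAIP1 (NOXA), and the effectors are BAX and BAK1. Every probe set annotated to 1 of these symbols was taken, 46 of the 49395 probe sets on the Affymetrix PrimeView array. For each gene 1 set stands for it, the one whose mean over the 9 arrays was highest, so the members are 10 of 18132 genes. The rule uses no difference between groups, but the genes were chosen with earlier results of these data known.

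The 9 arrays fall into 3 groups of cultures of this 1 cell line. In 3 cultures the cells received 3 µM PD325901, an inhibitor of MEK, the kinase that activates ERK. In 2 cultures they received 10 µM BB94 (batimastat), a broad inhibitor of metalloproteinases, which cut receptors and ligands from the cell surface. The 4 control cultures received 0.1% DMSO, the vehicle. All cultures were plated at 70% confluency in DMEM with 10% fetal bovine serum, treated on the next day and lysed 24 h later. Both inhibitors came from DMSO stocks, and the labels do not say whether the vehicle was brought to 1 level across treatments. The cultures are labelled biological replicates with no word on separate passages, days or batches, and the p-values measure the spread between these cultures.

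Anti-apoptotic BCL2 proteins hold BAX, BAK and the BH3-only proteins in check through a groove that binds the BH3 helix. BH3-only proteins occupy that groove or act on the effectors directly, and free BAX and BAK form pores in the outer mitochondrial membrane. In many cells ERK phosphorylates BIM and marks it for degradation, phosphorylates and stabilises MCL1, and keeps FOXO3, a transcription factor of the BIM gene, out of the nucleus. The arrays measured RNA and none of these protein steps. RNA was taken from whole cultures, so fewer cells that carry a transcript and less of it per cell cannot be told apart.

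Values are log2 intensities as deposited, after robust multi-array averaging (RMA), and a difference of 1 is a 2-fold change in probe set signal. Array medians over all probe sets ran from 6.05 to 6.34. The highest of 23 background probe sets lay between 6.02 and 6.50 on each array, and a value under it is called below background, although a gene under this strict floor need not be absent. The line's markers VIM, CD44, AXL and KRT18 were above background on all 9 arrays, and ESR1, PGR and CDH1 were below it on all 9, as were PTPRC and CD3E of leukocytes, COL1A2 and DCN of fibroblasts and CDH5 and TEK of endothelium. COL1A1, another fibroblast gene, was above it on all 9. KRT18, a keratin, had 10.80, 10.93 and 10.85 in the PD325901 cultures, 11.34 and 11.30 in the BB94 cultures, and 11.57, 11.61, 12.33 and 12.52 in the control cultures, so it was lower with PD325901 and split the controls. CDH1, although below background throughout, was called higher with PD325901 (difference 1.39, adjusted p 6.0e-06). DUSP6, a phosphatase gene that ERK signalling induces, had 11.04, 8.99 and 8.02 in the PD325901 cultures, 13.26 and 13.29 in the BB94 cultures, and 13.33, 13.52, 13.36 and 13.24 in the control cultures. The first PD325901 culture kept the highest DUSP6 of its group, and all 3 lay below every other culture. On principal component 1, with 73.3% of the variance over genes, the PD325901 arrays stood apart from the rest. Component 2 (10.2%) set control replicates 3 and 4 apart from control replicates 1 and 2. The signal of the 3' ACTB control probe set exceeded the 5' one by 4.15, 3.61 and 3.50 in the PD325901 arrays, 3.91 and 4.22 in the BB94 arrays, and 3.89, 3.75, 3.46 and 2.96 in the control arrays. Both BB94 arrays lay above all 4 controls in this 3' excess, which is larger where RNA integrity is lower, and its part in the results was not tested.

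Promoters of 4 members are shown first, BCL2L11 and BBC3 because they were the BH3-only genes that rose with PD325901, and BCL2A1 and BCL2L1 because they fell and hold motif matches. They come from RefSeq (build GRCh38.p14) and run from 250 bases before the annotated start to 50 after it. The table matched 9 of the 10 members with 11 promoters, and MCL1 is named only. Capitals mark matches to 7 motifs searched on both strands. These were the FOXO site TGTTTAC, the AP-1 site TGANTCA, the CRE TGACGTCA, the ETS site CCGGAAG, the NF-kB site, the E-box CACGTG and the TATA box TATAAA, and none of the matches in these promoters overlap.
BCL2L11: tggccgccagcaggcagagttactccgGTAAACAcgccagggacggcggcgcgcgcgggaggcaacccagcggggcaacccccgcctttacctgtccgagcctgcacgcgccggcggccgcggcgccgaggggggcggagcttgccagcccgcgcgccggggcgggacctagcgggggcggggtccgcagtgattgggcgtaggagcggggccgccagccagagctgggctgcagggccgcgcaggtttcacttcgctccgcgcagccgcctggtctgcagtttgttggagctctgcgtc
BBC3: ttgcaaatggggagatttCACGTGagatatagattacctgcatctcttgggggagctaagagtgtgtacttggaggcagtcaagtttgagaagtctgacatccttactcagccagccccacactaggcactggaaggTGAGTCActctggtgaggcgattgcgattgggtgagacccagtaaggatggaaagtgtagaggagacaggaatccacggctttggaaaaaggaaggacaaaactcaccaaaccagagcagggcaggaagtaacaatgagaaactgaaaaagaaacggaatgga
BCL2A1: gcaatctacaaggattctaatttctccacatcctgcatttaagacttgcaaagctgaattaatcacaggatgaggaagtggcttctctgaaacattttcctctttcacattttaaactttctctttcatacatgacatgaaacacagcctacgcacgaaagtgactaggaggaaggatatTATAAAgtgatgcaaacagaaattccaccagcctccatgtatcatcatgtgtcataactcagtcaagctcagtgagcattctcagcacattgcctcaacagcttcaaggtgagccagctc
BCL2L1: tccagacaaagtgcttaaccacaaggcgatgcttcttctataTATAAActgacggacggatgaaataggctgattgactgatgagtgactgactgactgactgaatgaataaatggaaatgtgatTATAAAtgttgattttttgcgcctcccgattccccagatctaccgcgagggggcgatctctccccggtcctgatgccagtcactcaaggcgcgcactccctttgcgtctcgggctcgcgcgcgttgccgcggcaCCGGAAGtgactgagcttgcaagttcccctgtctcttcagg

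The BCL2L11 window lies at chr2:111120664-111120963 on the plus strand. It holds 1 FOXO site, read on the opposite strand as GTAAACA and starting 223 bases before the start, and 3.42% of the 35116 promoters in the table hold this motif. FOXO factors are known to switch on BIM when growth factor signalling falls. The BBC3 window lies at chr19:47232618-47232917 on the minus strand and holds an E-box 232 bases before the start, a motif in 7.26% of promoters, and an AP-1 site TGAGTCA 113 bases before it, a motif in 7.71%. AP-1 is the family of JUN and FOS, and E-boxes bind factors such as MYC.

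BCL2A1 has a TATAAA match 70 bases before its start, in the window chr15:79971147-79971446 on the minus strand, and 11.5% of promoters hold one anywhere in the window. Its window has no match to the NF-kB letters searched, which 1.91% of promoters hold, and other forms of that site were not searched. BCL2L1 has 2 promoters in the table. The upstream one, at chr20:31723914-31724213 on the minus strand, holds TATAAA matches 208 and 125 bases before the start. It also holds an ETS site 10 bases after the start, a motif in 10.3% of promoters. The second BCL2L1 promoter holds none of the 7 motifs. Over all 11 member promoters, 6 hold no match, and BAX, whose level did not pass the test, holds 4 E-boxes at 138, 93, 45 and 14 bases before its start. The CRE motif, in 1.85% of promoters, is in none of the 11. These matches describe letters in a window and say nothing of binding.

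All 4 anti-apoptotic genes fell with PD325901. A gene is called changed at an adjusted p under 0.05 in limma, adjusted by Benjamini-Hochberg over 18132 genes. Of all genes, 12.3% were called lower and 22.8% higher in PD325901 against control cultures, so 65.1% of all calls were higher. That share was 31.7% with arrays centred on their median over genes, 52.6% with arrays centred over probe sets and 51.9% after cyclic loess. Among the members, 4 of 10 were called lower, all 4 of them anti-apoptotic, and 2 of 10 higher, both BH3-only. The 2 of 10 is near the 22.8% of all genes called higher, but most calls among the members were lower. The median difference was -1.27 over the 4 anti-apoptotic genes, 0.68 over the 4 BH3-only genes and -0.12 over the 2 effectors, against 0.083 over all genes. In 6 of the 10 members the PD325901 and control arrays did not overlap, against 40.4% of all genes.

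**Figure D1:**
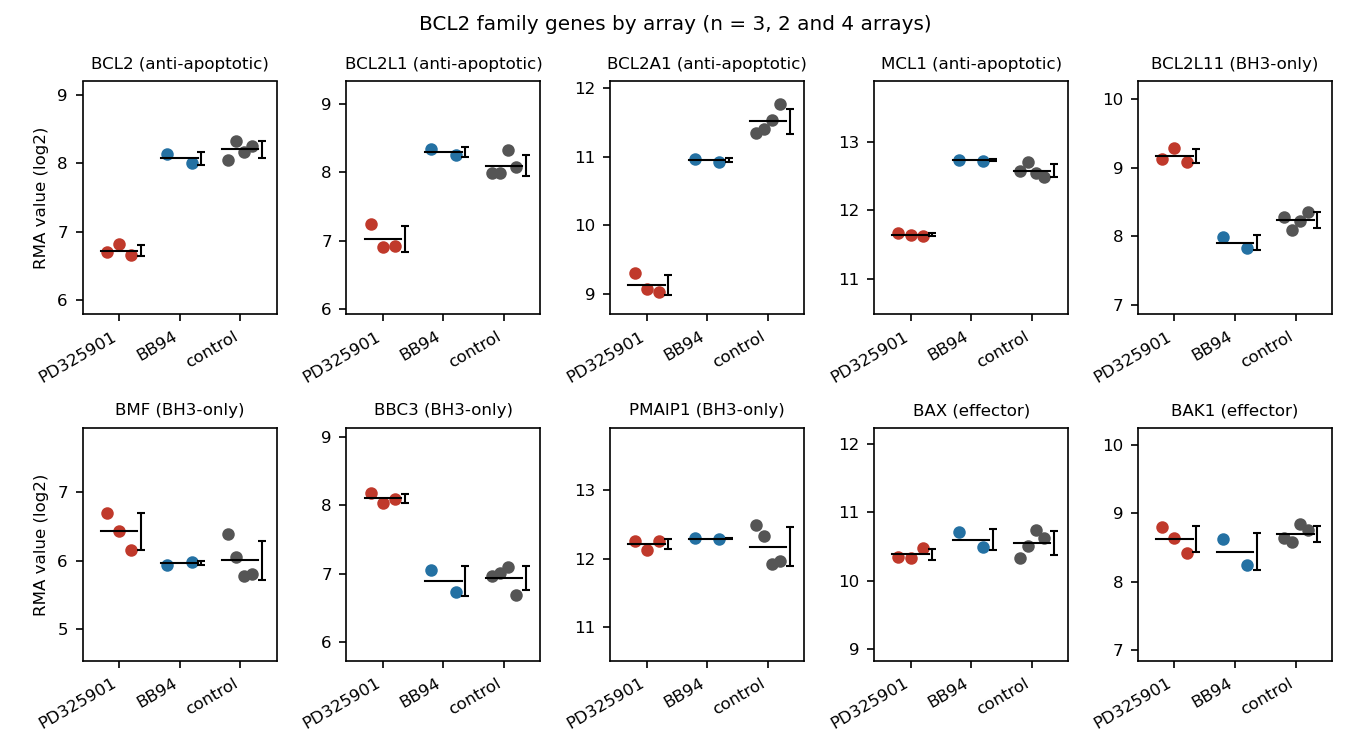
Log2 RMA intensity of the 10 members, a panel for each gene, with a point for each array, a line at each group mean and a bar of 1 SD to either side, from 3 PD325901, 2 BB94 and 4 control cultures. BCL2, BCL2L1, BCL2A1 and MCL1 are lower in every PD325901 culture than in any other, BCL2L11 and BBC3 are higher, and BMF, PMAIP1, BAX and BAK1 overlap the controls.

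BCL2A1, which encodes a short-lived relative of BCL2 best known from leukocytes and melanoma, had the largest difference among the representing probe sets. It had 9.30, 9.07 and 9.03 in the PD325901 cultures, 10.98 and 10.93 in the BB94 cultures, and 11.36, 11.42, 11.54 and 11.77 in the control cultures. The 3 groups occupied separate ranges, with PD325901 lowest, BB94 between and control highest. The PD325901 mean was 9.13 ± 0.14 (SD, n = 3) against 11.52 ± 0.18 in control cultures (SD, n = 4), a difference of -2.39 (SE 0.11, 95% interval -2.64 to -2.14) or 5.23-fold lower, with a limma adjusted p of 1.2e-07. With the mean of its 2 probe sets, 1 of them below background, it was -1.27, and BCL2L1, at -1.44, was then the larger.

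BCL2, the founding member of the family, had 6.71, 6.82 and 6.66 in the PD325901 cultures, 8.14 and 8.01 in the BB94 cultures, and 8.05, 8.33, 8.17 and 8.25 in the control cultures. BB94 and control cultures overlapped, and the PD325901 cultures lay more than 1 unit under it, close to the background level. Its mean was 6.73 ± 0.08 (SD, n = 3) in PD325901 and 8.20 ± 0.12 in control cultures (SD, n = 4). The difference was -1.47 (SE 0.09, 95% interval -1.68 to -1.27), 2.78-fold lower, with a limma adjusted p of 6.7e-07. It was -0.85 with the mean of its 6 probe sets.

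BCL2L1 encodes BCL-XL, which guards many epithelial cells and platelets. Its values were 7.24, 6.90 and 6.93 in the PD325901 cultures, 8.34 and 8.24 in the BB94 cultures, and 7.99, 7.99, 8.32 and 8.08 in the control cultures. No PD325901 culture came within the range of the other 6. The difference from control was -1.07 (SE 0.11, 95% interval -1.33 to -0.82), 2.11-fold lower, with a limma adjusted p of 3.0e-05. Its representing probe set carries the x suffix that Affymetrix gives to sets with probes that can match other sequences, and the other 2 BCL2L1 sets, which lack that suffix, also fell.

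MCL1 encodes a protein with a half-life well short of that of BCL2. It had 11.66, 11.64 and 11.62 in the PD325901 cultures, 12.74 and 12.72 in the BB94 cultures, and 12.58, 12.71, 12.55 and 12.49 in the control cultures. The spread within PD325901 cultures was 0.02 (SD, n = 3), the smallest of the 10 members in that group, and both BB94 cultures lay just above all 4 controls. With PD325901 the level was 1.92-fold lower than in control cultures (difference -0.94, SE 0.08, 95% interval -1.11 to -0.77), with a limma adjusted p of 5.7e-06.

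BH3-only genes did not move as 1 group. BBC3 and BCL2L11 rose, BMF depended on the probe set, and PMAIP1 did not pass the test. BBC3, whose product PUMA binds every anti-apoptotic member, had 8.17, 8.04 and 8.10 in the PD325901 cultures, 7.05 and 6.74 in the BB94 cultures, and 6.97, 7.01, 7.09 and 6.68 in the control cultures. BB94 and control cultures overlapped fully, and the PD325901 cultures stood nearly 1 unit above the highest of them. The difference from control was 1.16 (SE 0.11, 95% interval 0.91 to 1.42), 2.24-fold higher, with a limma adjusted p of 2.0e-05. With the mean of its 2 probe sets, 1 of them below background, it was 0.64.

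BCL2L11 encodes BIM, the BH3-only protein most closely tied to ERK. It had 9.13, 9.29 and 9.08 in the PD325901 cultures, 7.98 and 7.82 in the BB94 cultures, and 8.29, 8.09, 8.22 and 8.36 in the control cultures. The PD325901 cultures were the highest 3 and the BB94 cultures the lowest 2, so no pair of groups overlapped. It was higher by 0.93 with PD325901 than in control cultures (SE 0.09, 95% interval 0.72 to 1.14), 1.90-fold, with a limma adjusted p of 2.3e-05. With the mean of all 14 BCL2L11 probe sets in place of the representing one, the difference was 0.22 with an adjusted p of 0.0591, and 11 of the 14 lay below background on every array.

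BMF, whose product binds the dynein light chain on the actin skeleton in resting cells, had 6.70, 6.44 and 6.16 in the PD325901 cultures, 5.95 and 5.99 in the BB94 cultures, and 6.39, 6.05, 5.78 and 5.81 in the control cultures. The groups overlapped, and values above background came from 2 of 3 PD325901, 0 of 2 BB94 and 2 of 4 control cultures. The difference from control was 0.42 (SE 0.16, 95% interval 0.062 to 0.78) with a limma adjusted p of 0.0692. Against control replicates 1 and 2 it was 0.21 (adjusted p 0.383), and against replicates 3 and 4 it was 0.64 (adjusted p 0.0063). With 1 culture left out it ran from 0.29 without PD325901 replicate 1 (adjusted p 0.275) to 0.56 without PD325901 replicate 3 (adjusted p 0.0345), and it was 0.55 without control replicate 1 (adjusted p 0.0075). The mean of all 4 BMF probe sets gave 0.78 with an adjusted p of 6.7e-04.

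PMAIP1 encodes NOXA, which pairs chiefly with MCL1 and BFL-1. Its levels were 12.26, 12.12 and 12.25 in the PD325901 cultures, 12.30 and 12.29 in the BB94 cultures, and 12.49, 12.33, 11.92 and 11.96 in the control cultures. The PD325901 and BB94 cultures all lay between the 2 pairs of controls. The PD325901 difference was 0.036 (95% interval -0.27 to 0.34, limma adjusted p 0.88), but it was -0.20 against control replicates 1 and 2 alone and 0.27 against replicates 3 and 4 alone, the last with an adjusted p of 0.0218. Without control replicate 3 it was -0.049 and without replicate 4 -0.036, so its direction rests on which controls are used.

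Neither effector passed the test with PD325901. BAX had 10.35, 10.33 and 10.47 in the PD325901 cultures, 10.71 and 10.49 in the BB94 cultures, and 10.32, 10.51, 10.73 and 10.62 in the control cultures, and the groups overlapped. The difference was -0.16 (95% interval -0.40 to 0.077, limma adjusted p 0.297), and against control replicates 1 and 2 it was -0.034 (adjusted p 0.847), and against replicates 3 and 4 it was -0.29 (adjusted p 0.0352). BAK1 had 8.80, 8.65 and 8.42 in the PD325901 cultures, 8.63 and 8.25 in the BB94 cultures, and 8.63, 8.58, 8.84 and 8.75 in the control cultures. Its difference of -0.078 (95% interval -0.35 to 0.20, limma adjusted p 0.693) was smaller than the spread within the PD325901 group, 0.19 (SD, n = 3). Without PD325901 replicate 3 the BAK1 difference was 0.024, so its sign is not settled.

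**Figure D2:**
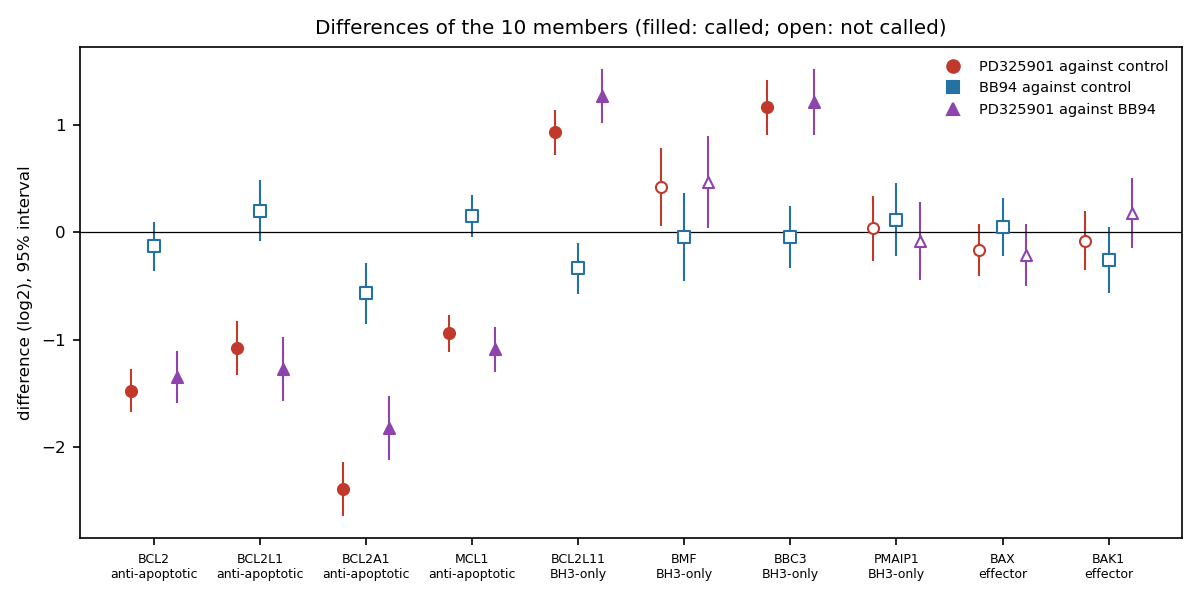
Log2 difference of each member with its 95% interval from limma, for PD325901 against control, BB94 against control and PD325901 against BB94, with genes grouped as anti-apoptotic, BH3-only and effector. The 4 anti-apoptotic genes lie below 0 with PD325901, BCL2L11 and BBC3 lie above it, and filled points mark calls at an adjusted p under 0.05.

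The genes' other probe sets were read next, since a single set can miss a transcript. In PD325901 against control cultures, 12 of the 46 were called lower and 6 higher, and no gene had calls in both directions. Over all probe sets 12.1% were called lower and 17.2% higher, with p-values adjusted over 49293 probe sets. By level, 18 were above background on all 9 arrays and 21 were below it on all 9.

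All 3 BCL2L1 sets fell, with differences of -1.07, -1.44 and -1.82. The last 2 were below background in every PD325901 culture, where they have only bounds of at least 1.36-fold and at least 1.48-fold lower. For MCL1 the 4 sets that fell had differences of -0.94, -1.43, -1.43 and -1.54, and the other 2 lay at or near background with differences of 0.054 and 0.080. The representing set of MCL1, the one with the highest mean, thus gave the smallest of its 4 falls. For BCL2, 4 of 6 sets were called lower, and 2 of these, with differences of -1.47 and -1.63, were above background in every culture. BCL2A1 had 1 other set, below background and not called.

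Of the 14 BCL2L11 sets, 3 were called higher and 11 did not pass. Beside the representing set, the other 2 called sets differed by 0.57 and 0.39 and were below background on all arrays. A further set, above background on all 9 arrays, had 7.23, 7.42 and 7.23 in PD325901 cultures, 7.33 and 7.14 in BB94 cultures, and 7.23, 7.02, 7.19 and 7.37 in control cultures. The 3 groups overlapped there, with a difference of 0.090 and a limma adjusted p of 0.602, so 2 measured BCL2L11 sets gave different results. The gene makes many spliced forms, and which of them each set detects is not given in the files.

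BMF also split by probe set. One set had 6.41, 6.39 and 6.27 in the PD325901 cultures, 4.47 and 4.50 in the BB94 cultures, and 4.77, 4.77, 4.42 and 4.20 in the control cultures. The groups were far apart, although all 4 control cultures and 2 of the 3 PD325901 cultures were below background, which leaves a bound of at least 1.11-fold higher. Its fitted difference was 1.82 (SE 0.14) with a limma adjusted p of 2.6e-06. A second set below background in all cultures rose by 0.59 with an adjusted p of 0.0273, and the other 2 did not pass, so 2 of 4 BMF sets were called higher. The 2 sets of PMAIP1, the 2 of BAX and the 5 of BAK1 gave no calls.

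**Figure D3:**
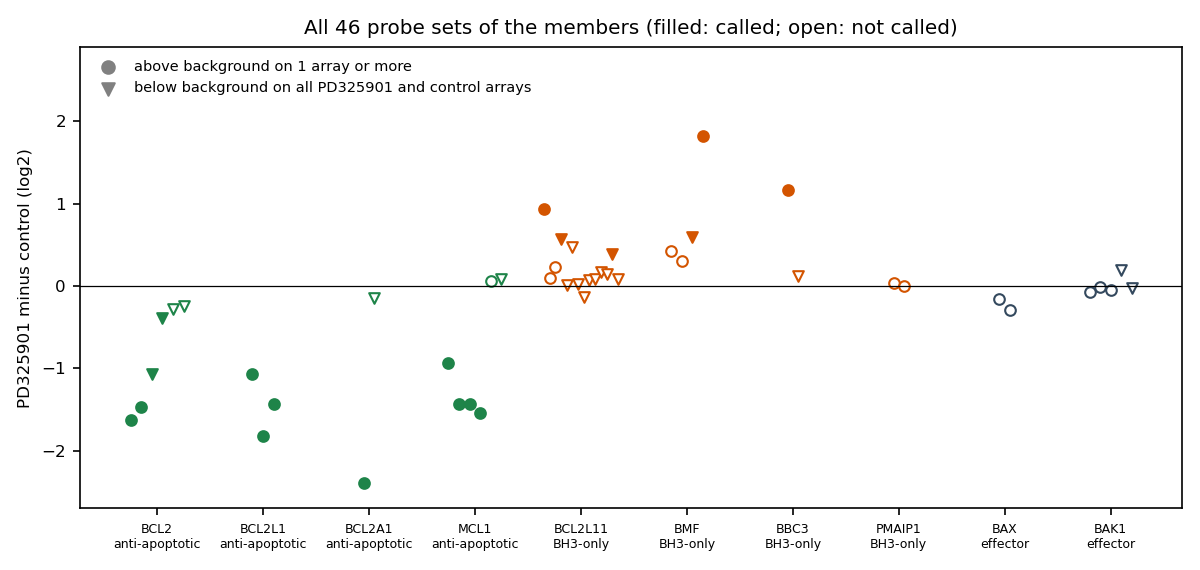
Log2 difference in PD325901 against control cultures for each of the 46 member probe sets, by gene, filled where called, with triangles for sets below background on all PD325901 and control arrays. Called sets of a gene lie on 1 side of 0 in every gene, and the 14 BCL2L11 sets reach up to 0.93.

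No member was called with BB94. In BB94 cultures 1.09% of all genes were called lower and 0.491% higher than in control cultures, and 31.1% of calls were higher (45.3% and 59.3% under the 2 centrings). By limma 0 of 10 members were called, as were 0 of 46 member probe sets, where all probe sets had 1.13% lower and 0.363% higher calls. At an unadjusted p under 0.05 there were 2 members, BCL2A1 and BCL2L11, both lower in BB94 cultures, against 1968 of all 18132 genes. In 3 members, BCL2A1, MCL1 and BCL2L11, the BB94 and control cultures did not overlap, against 17.3% of all genes.

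BCL2A1 averaged 10.95 ± 0.03 in BB94 cultures (SD, n = 2) and 11.52 ± 0.18 in control cultures (SD, n = 4), a difference of -0.57 (SE 0.13, 95% interval -0.85 to -0.28). This is 1.48-fold lower with a limma adjusted p of 0.0663. Against control replicates 1 and 2 the difference was -0.43 (adjusted p 0.102), and against replicates 3 and 4 it was -0.70 (adjusted p 0.0138). With 1 culture left out the adjusted p ran from 0.0345 without control replicate 1 to 0.487 without BB94 replicate 2. The mean of its 2 probe sets gave -0.32 with an adjusted p of 0.11.

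BCL2L11 averaged 7.90 ± 0.11 in BB94 cultures (SD, n = 2) against 8.24 ± 0.12 in control cultures (SD, n = 4). The difference was -0.34 (SE 0.11, 95% interval -0.57 to -0.10), 1.26-fold lower, with a limma adjusted p of 0.222. For MCL1 the difference was 0.15 (95% interval -0.046 to 0.35, adjusted p 0.63). BCL2 and BCL2L1, both called lower with PD325901, differed from control by -0.13 (95% interval -0.36 to 0.098) and 0.20 (95% interval -0.086 to 0.48) with BB94. BBC3, higher with PD325901, differed by -0.045 (95% interval -0.33 to 0.24) with BB94, and by 0.11 without BB94 replicate 2. The other 4 members lay between -0.26 for BAK1 and 0.12 for PMAIP1, with intervals that all held 0.

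The inhibitors were also set against each other. The differences use no control value, but the control arrays enter the shared estimate of spread behind each SE and p. In PD325901 against BB94 cultures 10.2% of all genes were lower and 21% higher, so 67.3% of calls were higher (28.4% and 41.2% under the 2 centrings and 53.2% after cyclic loess). Of the members 4 of 10 were lower and 2 of 10 higher. BCL2A1 was lower with PD325901 by 3.53-fold (difference -1.82, SE 0.13, limma adjusted p 3.9e-06). BCL2 was lower by 2.54-fold, BCL2L1 by 2.42-fold and MCL1 by 2.13-fold, with adjusted p at most 4.4e-05 for these 3. BCL2L11 was higher with PD325901 by 2.40-fold (difference 1.26, SE 0.11, limma adjusted p 1.3e-05), and BBC3 by 2.31-fold (difference 1.21, SE 0.14, adjusted p 7.1e-05).

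The BB94 cultures lay under the controls for both BCL2L11 and BCL2A1, so PD325901 and BB94 were further apart than PD325901 and control for BCL2L11 and closer for BCL2A1. Of the 46 member probe sets 12 were lower and 5 higher, against 8.92% and 16.9% of all probe sets. The groups did not overlap in 9 of 10 members, but with 3 arrays against 2 this held for 60.8% of all genes. BMF differed by 0.47 with an adjusted p of 0.0996. PMAIP1, BAX and BAK1 differed by -0.081, -0.21 and 0.18, and none passed the test. The second BAX probe set, above background on all 9 arrays, was called lower with PD325901 than with BB94 (difference -0.41, SE 0.13, limma adjusted p 0.0389). The comparisons of PD325901 and BB94 with control share the 4 control arrays, and their values are given side by side and not correlated.

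The rest of the apoptosis machinery was read from 6 lists of 57 genes, 53 of them measured and 4 not analysed here. Of these, E2F1 and TNFRSF10A were called with a difference of at least 1, and the other genes named from the lists were chosen after their values were seen. Among 13 other BCL2 family genes, 4 were higher and 2 lower with PD325901, with a median difference of 0.11. Of all genes 22.8% were called higher and 12.3% lower. The BH3-only genes HRK, BAD and BID were higher by 0.71, 0.41 and 0.22 (limma adjusted p 0.0248, 0.0057 and 0.0424). BCL2L13, a mitochondrial relative, was higher by 0.51, and BCL2L12 and BNIP3 were lower (differences -0.71 and -0.26, adjusted p 3.9e-04 and 0.043). BCL2L2, which encodes the anti-apoptotic BCL-W, differed by 0.15 with an adjusted p of 0.359. HRK had 7.53, 6.49 and 6.73 in the PD325901 cultures, 5.98 and 5.97 in the BB94 cultures, and 6.35, 6.29, 6.31 and 5.88 in the control cultures, 3 of the 4 above background. Its difference was 0.40 without PD325901 replicate 1 (adjusted p 0.0646) and 0.60 without control replicate 4 (adjusted p 0.065). The HRK call was lost under 7 of 21 alternatives, these 2 among them, with an adjusted p of up to 0.118. BID and BNIP3 stood close to the threshold, and without control replicate 2, for example, their adjusted p was 0.109 and 0.0639. Their calls were less stable than that of HRK. BID kept its call in 7 of 21 alternatives (adjusted p up to 0.798) and BNIP3 in 8 of 21 (adjusted p up to 0.576).

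Downstream of the mitochondria, 2 of 7 apoptosome and caspase genes were higher and 2 lower, against 22.8% and 12.3% of all genes. Their median was 0.13. CASP9, the caspase that the apoptosome activates, was higher by 0.65 (SE 0.09, limma adjusted p 2.3e-04) and CASP6 by 0.41, while CYCS (cytochrome c) and CASP2 were lower (differences -0.46 and -0.39). APAF1, the scaffold of the apoptosome, differed by 0.13 and was below background. Of 5 inhibitors of apoptosis 1 was called, BIRC5 (survivin), which also serves in mitosis, with a difference of -0.46, and XIAP differed by -0.30 with an adjusted p of 0.108. Their median was -0.25.

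In the death receptor pathway, which meets the BCL2 family through BID, 5 of 9 genes were lower and 1 was higher, with a median of -0.35. Of all genes 12.3% were lower and 22.8% higher. TNFRSF10A, a receptor for TRAIL, had 5.87, 5.59 and 5.80 in the PD325901 cultures, 7.76 and 7.60 in the BB94 cultures, and 7.67, 7.66, 7.77 and 7.48 in the control cultures. It was below background in all PD325901 cultures and above it in all others, so it was at least 2.34-fold lower (fitted difference -1.90, SE 0.10, limma adjusted p 2.6e-07). The TRAIL receptor gene TNFRSF10B, the adaptor gene FADD, FAS and CFLAR had differences of -0.45, -0.49, -0.44 and -0.35, and CASP10 had 0.45.

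Of 10 measured transcription factor genes known to act on members, 3 were higher and 2 lower, against 22.8% and 12.3% of all genes. Their median was 0.066. E2F1, which can activate BH3-only genes as well as the cell cycle, had 8.67, 8.44 and 8.33 in the PD325901 cultures, 10.14 and 10.01 in the BB94 cultures, and 10.07, 10.09, 10.21 and 9.95 in the control cultures. The PD325901 cultures were apart from the others, with a difference of -1.60 (SE 0.10), 3.03-fold lower, and a limma adjusted p of 9.3e-07. JUN, a subunit of AP-1, was lower with a difference of -0.76. STAT3 was higher by 0.72.

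The FOXO genes, whose products bind sites of the kind matched in the BCL2L11 promoter, differed among themselves. FOXO4 had 10.41, 10.41 and 10.42 in the PD325901 cultures, 9.34 and 8.97 in the BB94 cultures, and 9.40, 9.43, 9.60 and 9.76 in the control cultures. The PD325901 cultures were the highest and the BB94 cultures the lowest, and a link to BCL2L11 was not tested. FOXO3 had 10.97, 11.34 and 11.28 in the PD325901 cultures, 10.39 and 10.27 in the BB94 cultures, and 10.88, 10.86, 10.76 and 10.99 in the control cultures, with 1 PD325901 culture inside the control range. With PD325901, FOXO4 was higher by 0.87 (SE 0.12, limma adjusted p 1.7e-04) and FOXO3 by 0.32 (adjusted p 0.0362). The FOXO3 call was lost under 11 of 21 alternatives, with an adjusted p of up to 0.667. Among these were the fits without control replicate 2 or 3 (adjusted p 0.0757 and 0.0875). Those without PD325901 replicate 2 or 3 were others (adjusted p 0.163 and 0.133). FOXO1 differed by 0.11 and did not pass (adjusted p 0.389). With BB94 the differences were -0.39 for FOXO4 and -0.54 for FOXO3 (adjusted p 0.258 and 0.0576), and neither was called. FOXO4 was -0.21 without BB94 replicate 2 and -0.58 without BB94 replicate 1. FOXO3 was called in 7 of 21 alternatives, among them without PD325901 replicate 1 (adjusted p 0.0341), and its adjusted p was 0.528 without BB94 replicate 2. RNA says nothing of where FOXO proteins sat in the cell.

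Among 9 genes for partners and turnover of members, 2 were higher and 0 lower with PD325901, with a median of -0.032. The higher share is near the 22.8% of all genes, of which 12.3% were lower. The 2 were USP9X, which removes ubiquitin from MCL1 protein, and BTRC, a ubiquitin ligase subunit that acts on BIM and MCL1, each higher by 0.43. DYNLL1 and DYNLL2, which tether BIM and BMF, differed by -0.036 and -0.20, and FBXW7, HUWE1 and MARCHF5, ubiquitin ligases for MCL1, by -0.032, -0.070 and 0.009, and none of these 5 passed. With BB94, 0 of the 53 list genes were called by limma. An unadjusted p under 0.05 was reached by 5 of them, against 1968 of all 18132 genes.

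The smaller differences on these lists depend on how the arrays are scaled. The median over all genes was 0.083 in PD325901 against control cultures as deposited, and -0.17 after each array was centred on its median over genes. Of all 18132 genes, 4142 were called higher and 2223 lower as deposited, and 2353 higher and 5076 lower after that centring. Under that centring BID, at -0.031, changed sign, and 0 of the 13 other BCL2 family genes were called higher, along with 1 of 7 apoptosome and caspase genes, 0 of 9 for partners and turnover, 2 of 10 transcription factor genes and 0 of 9 in the death receptor pathway. Called lower were 2 of 13 other BCL2 family genes, 3 of 7 apoptosome and caspase genes, 4 of 5 inhibitors of apoptosis, 3 of 9 for partners and turnover, 4 of 10 transcription factor genes and 6 of 9 in the death receptor pathway. The genes for partners and turnover thus had 2 higher and 0 lower calls as deposited, and 0 higher and 3 lower calls when centred. CASP9, FOXO4 and STAT3 kept their calls, and so did E2F1, JUN, BCL2L12, BIRC5 and the 5 lower genes of the death receptor pathway. Of the members, the 6 that were called kept their calls, and BAX and BAK1 were called lower under this centring alone among the 3 scalings tried (differences -0.42 and -0.33, adjusted p 0.0089 and 0.0222).

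**Figure D4:**
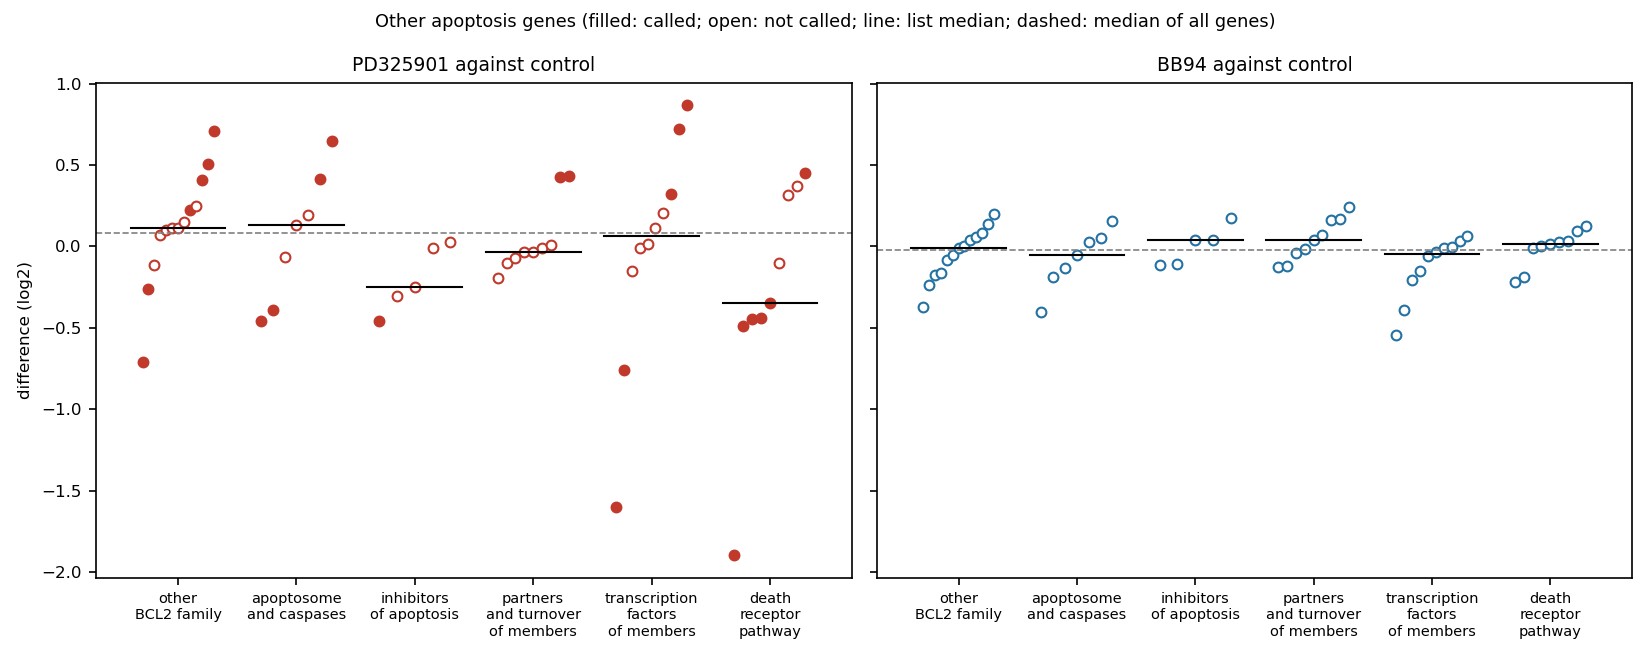
Log2 difference of the 53 measured list genes in PD325901 (left panel) and BB94 (right panel) against control cultures, by list, with called genes filled, a line at each list's median and a dashed line at the median of all genes. TNFRSF10A, at -1.90, and E2F1, at -1.60, lie lowest in the left panel, and no gene is filled in the right panel.

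BBC3 and BCL2A1 had the largest rise and fall among the representing probe sets, though not when all probe sets of a gene were averaged, where BMF (0.78) and BCL2L1 (-1.44) had them. The genes most like BBC3 and BCL2A1 were read from Pearson's r over the 9 arrays. For BBC3 they were MAGED1 (r = 0.997), TMEM120B (r = 0.995) and TEAD3 (r = 0.995), each higher with PD325901, by 0.98, 0.89 and 0.66. For BCL2A1 they were EDNRB, NUF2 and GPANK1 (r = 0.996 for each), with differences of -1.37, -0.97 and -0.92. The 9 arrays share their groups, and PD325901 arrays stood apart over most of the variance, so r near 1 describes the split of these arrays.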

How the data were processed

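The submitters' series text says that the arrays were preprocessed with RMA in the R package affy, so the deposited values are log2 probe set intensities. RMA subtracts background, brings the arrays to 1 distribution and fits 1 value per probe set, so a treatment that shifts most transcripts 1 way is partly removed. Versions and the genome build are not given in the sources. Values were used as deposited, with 0 columns left unassigned to a sample.

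Of the 49395 probe sets, 102 were array controls and entered no test. The platform annotation gave 1 gene symbol for 44988 probe sets, several for 1832 and none for 2473, and 44961 matched RefSeq GRCh38.p14, used for names and for the promoters. Of a gene's probe sets the brightest on average represented it, over 18132 genes. Groups were compared with limma 3.58.1 (lmFit and eBayes, two-sided) in R 4.3.3, with a coefficient per group, 6 residual degrees of freedom and Benjamini-Hochberg adjustment over all genes. The fit was tested on simulated data. Arrays carry no read depth, and their number limits the precision.

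Folds against a group below background are bounds. Each array of the dimmer group enters at its background level or at the gene's value, whichever is higher, and the number of arrays above background is given where only some were.

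The 10 members and the 6 other lists were chosen with earlier results of these data known. Named by rule were the members, list genes called with a difference of at least 1, the 3 genes most like the members with the largest rise and fall, and DUSP6. Other list genes were named after their values were seen, and the cell markers are a list of their own. The main fit did not pair cultures by replicate number. The correlation of same-numbered deviations from the group means ran from -0.18 to 0.052 between PD325901 and control cultures. It ran from -0.19 to 0.12 between BB94 and control cultures, and from 0.015 to 0.061 between PD325901 and BB94 cultures. With so few cultures these values cannot settle whether numbers mark pairs. The 21 alternatives cover probe set choice, filtering, variance model, weights, scaling, samples, the replicate block and each replicate left out.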

Additional observations from a re-analysis of the deposited data

Results flagged for a closer look

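Of 99 tests for a control culture that stood far from the other 3, 2 met the criterion, a gap above Dixon's 95% critical value for 4 samples, and chance alone flags about 1 in 20 groups. HRK had 5.88 in control replicate 4, against 6.29 to 6.35 in the other 3 control cultures. BCL2L13 had 9.61 in control replicate 4, against 9.94 to 10.01 in the other 3. None of the 10 members met it. Both genes were called higher with PD325901, and control replicate 4 enters both calls. Groups of 2 and 3 cultures could not be tested in this way.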

How the results depend on the processing

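BCL2, BCL2L1, BCL2A1, MCL1 and BBC3 kept their calls in PD325901 against control cultures under all 21 alternatives, and BCL2L11 under all except the mean of its probe sets (0.22, adjusted p 0.0591). Of the members, 2 to 4 were then higher, with 4 against control replicates 3 and 4 alone, and 4 to 6 lower. Member probe sets called lower numbered 20 with arrays centred on genes and 11 to 14 with a replicate left out, and those called higher 10 against control replicates 3 and 4 alone and 5 to 8 with a replicate left out, alternatives chosen after seeing the data. With BB94, 1 member was called higher against control replicates 3 and 4 alone (PMAIP1, 0.35), and 1 was lower, BCL2A1, with the filter on the mean, with trend and robust, with array weights, against control replicates 3 and 4 alone and, within a range of 0 to 1 with a replicate left out, without control replicate 1. All-gene calls with BB94 numbered 286, 140 in the fit of 2 groups only, 469 with array weights, 161 with the replicate block, 62 to 367 with a replicate left out and 1633 against control replicates 3 and 4 alone.

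Several small differences changed sign. In PD325901 against control, PMAIP1 was -0.082 with array weights, -0.22 and -0.066 centred on genes and on probe sets, -0.20 against control replicates 1 and 2 alone and -0.049 to 0.14 with a replicate left out. BAK1 was 0.0037 with the mean of probe sets, 0.016 against control replicates 1 and 2 and -0.17 to 0.024 with a replicate left out, and BID was -0.031 centred on genes. In BB94 against control, BMF was 0.030, 0.070 and 0.011 centred on genes, on probe sets and after cyclic loess, 0.17 against control replicates 3 and 4 and -0.12 to 0.085 with a replicate left out. BBC3 was 0.029 with the mean of probe sets, 0.027, 0.068 and 0.010 under the 3 scalings, 0.0057 against control replicates 3 and 4 and -0.20 to 0.11 with a replicate left out. PMAIP1 was -0.12 against control replicates 1 and 2, and BAX -0.082 against replicates 3 and 4 and -0.061 to 0.16 with a replicate left out. In PD325901 against BB94, BAK1 was -0.14, -0.033 and -0.051 under the 3 scalings and -0.0075 to 0.37 with a replicate left out. The cause was not tested.

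With the replicate number as a block, the members called in PD325901 against control were 4 lower and 3 higher, BMF being added (0.36, adjusted p 0.0284), and PMAIP1 was -0.036. With the block PMAIP1 was -0.026 in BB94 against control. Same-numbered inhibitor and control cultures deviated together in no consistent way. Among the controls 0 of 3 PD325901 cultures and 0 of 2 BB94 cultures correlated best with their own number. Among the BB94 cultures 2 of 3 PD325901 cultures did. The deviations of 2 cultures from their mean mirror each other, so that last count cannot decide whether numbers mark pairs. PD325901 replicate 3 has no BB94 culture of its number. Signal near background limits BMF, HRK and 21 of the 46 member probe sets.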
